A study of Mus musculus with 2 samples.

Results

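Cornified envelope and squamous differentiation genes were followed in organoids of mouse fallopian tube (oviduct) epithelium with and without Trp53, the gene of the tumour suppressor p53. The 10 genes were picked by symbol: Sprr1a, Sprr2d, Sprr2e, Sprr2f, Sprr3, Ivl, Lor, Tgm1, Sfn and Krtdap, of 25668 gene symbols listed. All 10 were present in both tables. The control was 1 library of normal organoids (genotype label WT) from a mouse of the strain B6J.129(B6N) with the allele Gt(ROSA)26Sortm1(CAG-cas9*,-EGFP)Fezh, which carries Cas9 and EGFP under the CAG promoter in the Rosa26 locus, and the other was 1 library of organoids labelled Trp53 KO. Both carried the same treatment label, conditioned medium. The labels give no animal age and do not say whether the knockout line is 1 clone. With 1 library per genotype there was no replicate check and no test between genotypes, so every difference compares these 2 libraries.

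The cornified envelope is a shell of cross-linked protein that replaces the plasma membrane of squamous cells as they differentiate. Involucrin (Ivl) forms its first scaffold, loricrin (Lor) reinforces it late, the small proline-rich proteins (the SPRR family) act as cross-bridges, and transglutaminase 1 (Tgm1) makes the bonds. Most of the structural genes lie side by side in the epidermal differentiation complex of chromosome 3. The normal tube is lined by a simple layer of secretory and multiciliated cells, which do not cornify, although SPRR genes are also used by simple epithelia under stress or hormone action.

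Upstream sequences of the genes are shown because 6 of the 7 SPRR and scaffold genes, and Krtdap on chromosome 7, carry the same pair of short motifs, while Sfn on chromosome 4 and Tgm1 on chromosome 14 carry neither. The 250 bases before the annotated start were taken from RefSeq (build GRCm38.p6, an earlier build than that of the deposited values), 5′ to 3′ on the strand of the gene, and entries were found for all 10 genes. Capitals mark 2 motifs searched on both strands: TGANTCA, the core bound by AP-1 factors, and TATAAA, the usual form of the TATA box. The sequences cover chr3:92485882-92486131, minus strand for Sprr1a, chr3:92338890-92339139, plus strand for Sprr2d, chr3:92351893-92352142, plus strand for Sprr2e, chr3:92364937-92365186, plus strand for Sprr2f, chr3:92083143-92083392, minus strand for Lor and chr4:133602169-133602418, minus strand for Sfn.
Sprr1a: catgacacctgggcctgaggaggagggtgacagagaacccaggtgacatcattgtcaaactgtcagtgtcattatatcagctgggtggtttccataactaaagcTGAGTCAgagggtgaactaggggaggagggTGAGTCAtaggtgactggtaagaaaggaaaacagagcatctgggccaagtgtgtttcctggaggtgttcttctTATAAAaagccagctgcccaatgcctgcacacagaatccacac
Sprr2d: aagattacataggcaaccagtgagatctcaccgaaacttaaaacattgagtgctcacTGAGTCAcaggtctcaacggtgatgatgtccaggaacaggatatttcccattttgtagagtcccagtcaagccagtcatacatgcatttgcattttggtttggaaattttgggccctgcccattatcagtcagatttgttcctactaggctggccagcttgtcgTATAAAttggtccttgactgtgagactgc
Sprr2e: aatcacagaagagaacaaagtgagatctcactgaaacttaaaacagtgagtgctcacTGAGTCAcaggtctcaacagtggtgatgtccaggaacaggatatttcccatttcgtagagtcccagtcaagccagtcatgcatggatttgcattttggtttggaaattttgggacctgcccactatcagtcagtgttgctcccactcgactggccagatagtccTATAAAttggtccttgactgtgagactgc
Sprr2f: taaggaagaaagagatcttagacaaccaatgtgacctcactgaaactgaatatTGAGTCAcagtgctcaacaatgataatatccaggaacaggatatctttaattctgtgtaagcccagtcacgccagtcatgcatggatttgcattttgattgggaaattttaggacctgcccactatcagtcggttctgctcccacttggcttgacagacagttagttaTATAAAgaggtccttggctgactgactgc
Lor: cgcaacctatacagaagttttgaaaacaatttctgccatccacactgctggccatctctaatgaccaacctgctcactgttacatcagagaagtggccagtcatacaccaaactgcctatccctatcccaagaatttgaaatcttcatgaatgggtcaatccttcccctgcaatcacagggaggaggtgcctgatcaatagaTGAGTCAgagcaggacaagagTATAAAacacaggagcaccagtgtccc
Sfn: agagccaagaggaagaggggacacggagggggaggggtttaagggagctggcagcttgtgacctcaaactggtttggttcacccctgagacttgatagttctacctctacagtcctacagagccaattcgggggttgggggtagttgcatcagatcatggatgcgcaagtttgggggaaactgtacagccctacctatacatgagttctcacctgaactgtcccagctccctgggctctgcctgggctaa

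The AP-1 core was found upstream of 7 of the 10 genes, against 6.75% of all 32851 promoters in the table. Sprr1a held 2 copies, which begin 146 and 116 bases before the start. Sprr2d and Sprr2e held 1 copy at 193 bases and Sprr2f 1 copy at 197 bases, each in the form TGAGTCA. Ivl, Lor and Krtdap held 1 copy each, at 116, 48 and 81 bases. A TATA box was found upstream of 8 of the 10 genes, against 12.4% of all promoters, and lay 27 to 43 bases before the start. The upstream sequences of Sprr2d and Sprr2e were identical at 88.9% of aligned positions, those of Sprr2e and Sprr2f at 72.6%, and those of Sprr1a and Sprr3 at 49.3%. Neither motif was found upstream of Sfn or at either annotated start of Tgm1, and Sprr3 held the TATA box alone. The motif AACNNGTT of grainyhead-like factors was found once, upstream of Sfn (3.64% of all promoters), and GGGTGTGG of Klf factors once, upstream of Ivl (3.20% of all promoters). The AP-1 core was shared by genes that were higher in the knockout library, such as Sprr1a, and by Lor, which was lower there. A match in these windows is a description of the letters and not a measured binding site.

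Trp53 itself had 83.2 TPM in control and 2.42 TPM in knockout organoids, a ratio of 0.0291 (95% counting interval 0.0230 to 0.0362) and in keeping with the genotype labels. TPM, a length-scaled abundance, divides reads by gene length and scales each library to the same total, so levels can be set side by side between genes. Read numbers were recovered from the TPM values, to an estimated total of 101329626 reads (control) and 27992921 reads (knockout). The counting intervals below are exact at 95% and leave out every error but that of counting, and no molecular identifiers were used, so reads are not independent molecules. Of 8 epithelial and secretory markers, 4 were at least 2-fold lower in knockout organoids and 0 higher, with a median difference of −0.55 in log2(TPM + 1): Ovgp1, the oviduct glycoprotein, was 7.44 and 0.192 TPM, Wt1 35.3 and 7.85 TPM, Sox17 86.5 and 22.5 TPM and Muc1 805 and 393 TPM. Epcam, at 713 and 697 TPM, and Pax8, at 44.8 and 46.0 TPM, were among the other 4, and the part of these marker differences in the results below was not tested. The 6 endothelial markers summed to 0.181 and 0.0674 TPM, and 11 of 12 fibroblast and smooth muscle markers were below 1 TPM in both libraries, with Col1a2 and Thy1 at 0 in both and Acta2 at 1.07 and 17.8 TPM. Of 10 immune markers, 8 were below 1 TPM in both libraries and 4 at 0 in both. The rest were Cd68, at 25.5 and 15.97 TPM, and Csf1r, at 8.78 and 0.420 TPM. Csf1r was at least 2-fold lower in knockout organoids, with a ratio of 0.0478 (0.0336 to 0.0661), and Cd68 was within 2-fold. The 18 multiciliated markers summed to 399 and 87.4 TPM. Of these, 10 were at least 2-fold lower in knockout organoids, 0 higher and 8 neither, with a median difference of −1.18 in log2(TPM + 1). Ccno was 27.4 and 0.181 TPM, Tppp3 12.3 TPM and 0, and Ccdc153 11.6 TPM and 0. The part of these differences in the results below was not tested either. In bulk RNA, more cells of a type and more RNA per cell cannot be told apart.

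The small proline-rich genes were higher in knockout organoids in 4 of 5 cases. Sprr1a, the cross-bridging protein induced early in squamous differentiation and by stress, was 61.5 TPM in control organoids (2949 reads) and 467 TPM in knockout organoids (6661 reads). Its ratio of knockout to control was 7.60 (counting interval 7.28 to 7.94). Sprr2f, a family member known to respond to oestrogen in the uterus, was 22.3 TPM (807 reads) and 168 TPM (1813 reads), a ratio of 7.56 (6.95 to 8.22). These 2 genes held most of the SPRR level among the 10 genes in both libraries, and their intervals overlapped. Sprr2d, a close paralog, was 0.296 TPM from 12 reads and 1.91 TPM from 23 reads, a ratio of 6.45 (3.08 to 14.2). Sprr2e was 0.389 TPM from 15 reads and 9.09 TPM from 104 reads. Its ratio of 23.3 (13.5 to 43.2) lay above the intervals of Sprr1a and Sprr2f and overlapped only with that of Sprr2d among the SPRR genes of the set that were higher.

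Sprr3, a family member of internal squamous epithelia such as oesophagus, stood apart from the other 4. It was 0.742 TPM in control organoids (54 reads) and 0.0925 TPM in knockout organoids, from 2 reads. The ratio of knockout to control was 0.125, with a wide interval of 0.0147 to 0.473. On the log2(TPM + 1) scale its difference was −0.67, short of a 2-fold call, because the added 1 TPM shrinks differences of low genes.

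**Figure D1:**
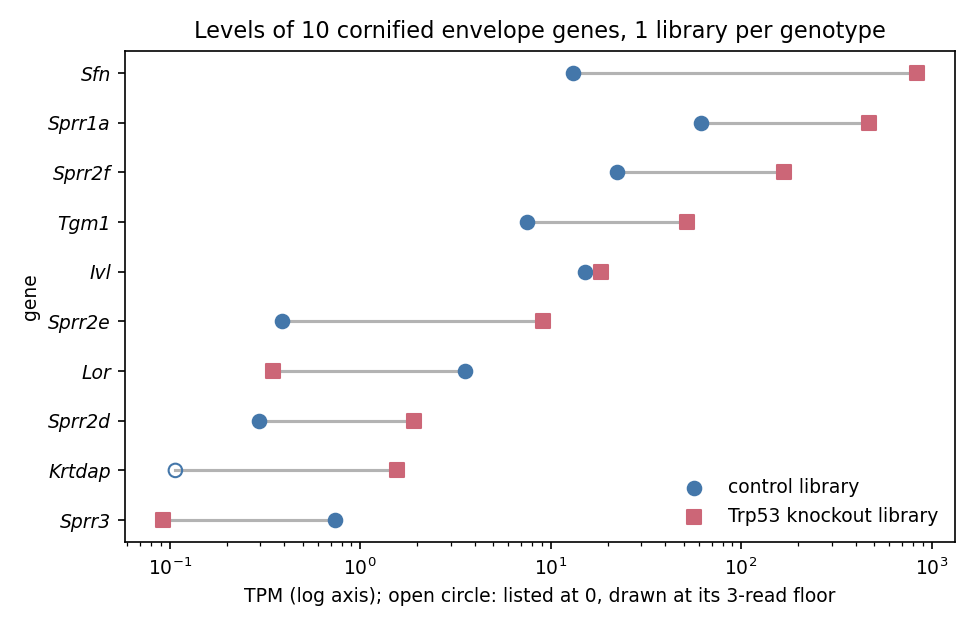
TPM of each of the 10 genes on a log axis, with circles for the control library and squares for the Trp53 knockout library. Sfn, Sprr1a, Sprr2f and Tgm1 sit far to the right in knockout organoids, Ivl hardly moves, and Lor and Sprr3 lie to the left. Krtdap was listed at 0 in control organoids and is drawn at the level of 3 reads, 0.107 TPM.

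Neither scaffold gene was 2-fold higher in knockout organoids, and 1 was lower. Involucrin (Ivl) was 15.2 TPM in control organoids (1737 reads) and 18.4 TPM in knockout organoids (625 reads), a ratio of 1.21 (1.10 to 1.33), well inside 2-fold. Loricrin (Lor), the main protein of the mature epidermal envelope, was 3.54 TPM (375 reads) and 0.350 TPM (11 reads). It was thus 10.1-fold lower in knockout organoids (interval 5.60 to 20.5). The 2 scaffold genes summed to almost the same level in both libraries, 18.72 and 18.73 TPM. In plain TPM the differences of Lor and Ivl were of like size and opposite sign, while in log2(TPM + 1) they were −1.75 and 0.26.

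Tgm1, the membrane-bound enzyme that cross-links the envelope, was 7.55 TPM in control organoids (1421 reads) and 52.2 TPM in knockout organoids (2921 reads). Its ratio of 6.92 (6.49 to 7.38) overlapped in interval with those of Sprr1a, Sprr2d and Sprr2f. Sfn encodes 14-3-3 sigma, a binding protein of phosphorylated partners that marks stratified epithelium, arrests the cell cycle and is known as a gene that p53 activates. It was 13.2 TPM in control organoids (1264 reads) and 839.6 TPM in knockout organoids (23955 reads), a ratio of 63.8 (60.3 to 67.5), the largest of the 9 genes with reads in both libraries. Krtdap, a secreted protein of differentiating keratinocytes, was listed at 0 TPM in control organoids and at 1.56 TPM in knockout organoids, from 13 reads. Against a floor of 3 control reads it was at least 14.6-fold higher, and the counting interval of the ratio, which also covers the error of the 13 reads, began at 10.3.

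Sfn lies on chromosome 4, whose genes were higher as a whole in knockout organoids. The median difference in log2(TPM + 1), knockout minus control, was 0.62 over 680 measured genes of chromosome 4, and 28.8% of them were at least 2-fold higher. The difference of Sfn was 5.89, and the part of the chromosome in it was not tested. The chromosomes of the other 9 genes had medians of −0.23 (chromosome 3), −0.22 (chromosome 7) and −0.25 (chromosome 14).

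**Figure D2:**
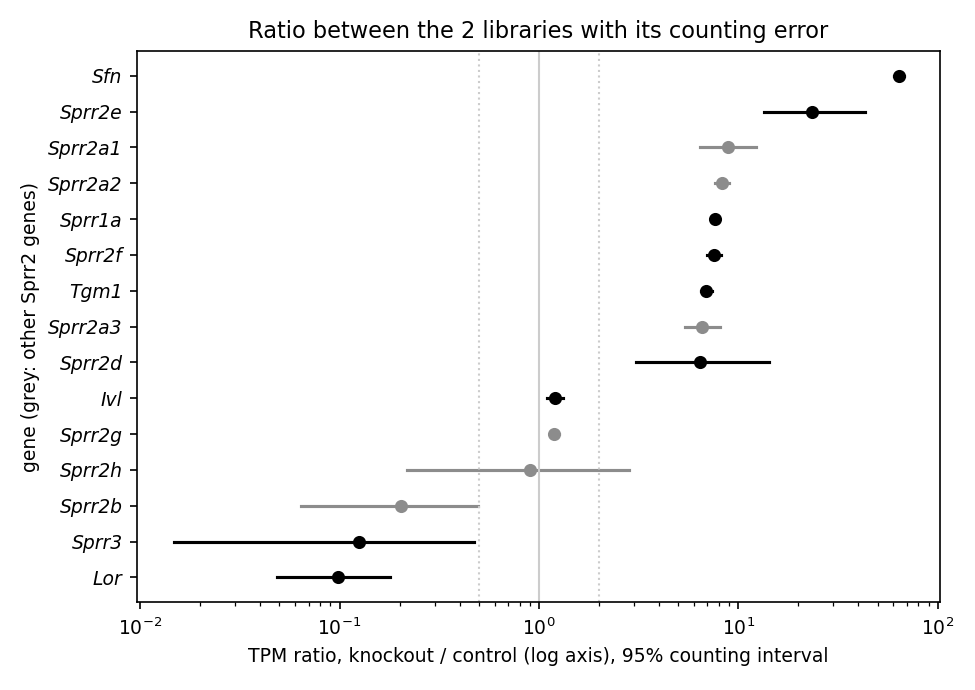
Ratio of TPM in knockout organoids to TPM in control organoids on a log axis, with 95% counting intervals, for the 9 genes with reads in both libraries (black) and 6 other Sprr2 genes (grey). Solid and dotted lines mark ratios of 1 and of 2-fold either way. Sfn and Sprr2e lie to the right of a cluster at ratios of 6.45 to 8.87, while Ivl and Sprr2g lie near 1 and Lor, Sprr3 and Sprr2b below it.

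As a set, 7 of the 10 genes were at least 2-fold higher in knockout organoids on the log2(TPM + 1) scale, 1 (Lor) was at least 2-fold lower, and 2 (Ivl and Sprr3) were neither. Among all genes with a mean of at least 1 TPM, 8.35% passed that threshold upward and 15.3% downward. Over every gene in the tables, with no filter on low values, these shares were 3.82% and 7.41%. The 10 genes were chosen with earlier results of these data known, so the shares are a background and not a test. Krtdap and Sprr3 had a mean below 1 TPM, so 8 of the 10 would pass that filter. The counting interval of the plain TPM ratio lay wholly above 2-fold for all 7 higher genes and wholly below a ratio of 0.5 for Lor and Sprr3. The median difference over the 10 genes was 1.998, against −0.17 over genes with a mean of at least 1 TPM and 0.00 over all genes in the tables. Quantile normalization moved the median of all genes to 0.03 and the share of 2-fold calls that were higher from 35.3% to 49.4%, and rescaling by the median ratio moved that share to 44.9%. Under both scalings all 10 genes kept the sign of their difference.

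The order of the genes by level changed between the libraries. In the control library the order from the highest was Sprr1a, Sprr2f, Ivl, Sfn, Tgm1, Lor, Sprr3, Sprr2e, Sprr2d and Krtdap. Neighbours in this order had separate counting intervals except for Sprr3 and Sprr2e (0.558 to 0.969 and 0.218 to 0.642 TPM) and Sprr2e and Sprr2d (0.153 to 0.517 TPM for the latter). In the knockout library Sfn came first, followed by Sprr1a, Sprr2f, Tgm1, Ivl, Sprr2e, Sprr2d, Krtdap, Lor and Sprr3. There the intervals of Sprr2d (1.21 to 2.86 TPM) and Krtdap (0.833 to 2.67 TPM) overlapped, as did those of Lor (0.174 to 0.625 TPM) and Sprr3 (0.0112 to 0.334 TPM).

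Together the 10 genes summed to 125 TPM in control organoids and 1559 TPM in knockout organoids, 12.5 times as much. Sfn made up 10.6% of the control sum and 53.9% of the knockout sum, and Sprr1a 49.3% and 30.0%. Without Sfn the sums were 111 and 719 TPM, a ratio of 6.45, and Sprr1a then held 55.2% and 65.0%. Ivl made up 12.2% and 1.18% of the sum of all 10, and Lor 2.84% and 0.0224%.

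**Figure D3:**
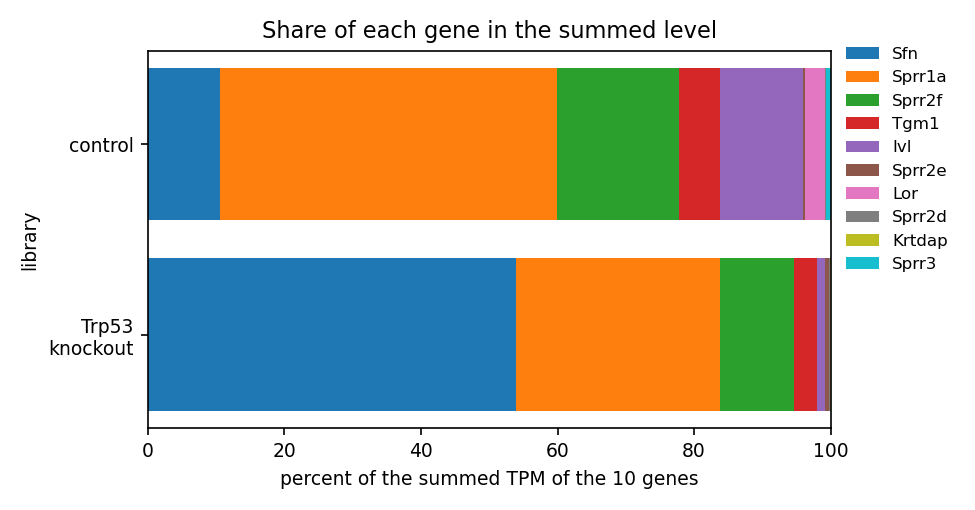
Each gene as a percent of the summed TPM of the 10 genes, 1 bar per library. Sprr1a takes the largest part of the control bar (49.3%) and Sfn of the knockout bar (53.9%), while the parts of Ivl and Lor are smaller in the knockout bar.

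Other genes of the SPRR family were read next, since near-identical copies can share reads. Of 50-base windows, the length of the reads, 4.27% in the Sprr2d transcript, 10.2% in Sprr2e and 0.714% in Sprr2f also occurred in a transcript of another gene. None did in Sprr1a, Sprr3, Lor or Krtdap. In Sfn 15.0% of windows were shared, with 3 other genes of the annotation, among them Ywhaq-ps1, and in Tgm1 4.78%. Sprr2a1 and Sprr2a2 shared 96.3% and 96.5% of their windows, so their single values are uncertain. Sprr2a1, Sprr2a2 and Sprr2a3 together were 6.01 TPM in control organoids and 48.4 TPM in knockout organoids, 8.06 times as much. Sprr2b, which shares 13.7% of its windows, was 1.78 TPM (83 reads) and 0.361 TPM (5 reads), a ratio of 0.203 (0.0641 to 0.492).

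Sprr2g, the most abundant SPRR gene of control organoids and with no shared window, was 140.3 TPM there and 168 TPM in knockout organoids, a ratio of 1.19 (1.13 to 1.26). The 12 Sprr2 genes in the tables summed to 172 and 396 TPM, a ratio of 2.31. The genes differ in length and some windows are shared with genes outside the family, and how far the splitting of shared reads moves this sum was not tested. Leaving out Sprr2g the sums were 31.2 and 228 TPM, a ratio of 7.32. Sprr2g made up 81.8% of the Sprr2 sum in control and 42.3% in knockout organoids, and Sprr2f 13.0% and 42.5%. Of the 10 other SPRR genes found in the tables, 3 were at least 2-fold higher, 1 lower and 6 neither, and Sprr1b was listed at 0 in control and at 0.0681 TPM in knockout organoids.

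Within the epidermal differentiation complex, 71 listed genes lay between S100a1 and S100a10 in RefSeq order. Of these 18 were at least 2-fold higher in knockout organoids, 3 were lower, and 44 were below 1 TPM in both libraries. The higher genes were 10 of 15 S100 genes, 7 of 16 SPRR genes (the pseudogene Sprr2j-ps among the 16) and Crnn. None of 21 late cornified envelope (LCE) genes was called at 2-fold, and 18 of them were at 0 in both libraries. The highest LCE level in either library was 0.237 TPM (Lce3c, control). With 1 TPM added, no LCE gene could have reached a 2-fold call at these levels. Genes of opposite direction stood side by side, with Sprr2b, which was lower, between Sprr2a3 and Sprr2d, which were higher. Krtdap has Dmkn (dermokine) and Sbsn (suprabasin), secreted proteins of stratified epithelium, as its nearest neighbours on one side in RefSeq order on chromosome 7. Dmkn was 9.45 and 29.7 TPM, a ratio of 3.14 (2.88 to 3.43), and Sbsn 9.44 and 20.5 TPM, a ratio of 2.18 (1.99 to 2.38). These 2 neighbours were singled out after their values were seen. The nearest gene on the other side, Ffar2, was 0.0421 and 0.0203 TPM. Beyond it Ffar3 was 0.00909 TPM and 0, and Ffar1 and Cd22 were at 0 in both libraries. Beyond Sbsn, Gapdhs was 0.115 TPM and 0, and Tmem147 was 302.7 and 193 TPM, so Dmkn and Sbsn were the only 2 of these 8 neighbours that were 2-fold higher.

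**Figure D4:**
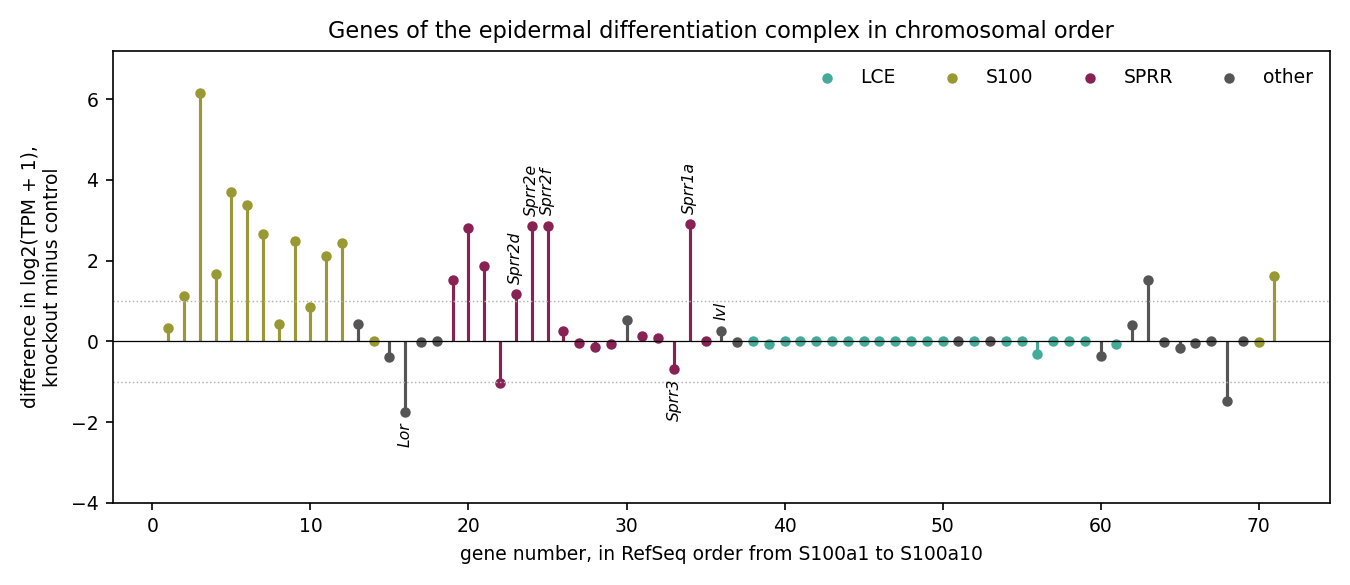
Difference in log2(TPM + 1), knockout minus control, for 71 genes of the epidermal differentiation complex in chromosomal order, coloured by family, with dotted lines at 2-fold. Positive differences gather among the S100 and SPRR genes, while the 21 LCE genes lie at or close to 0, and Lor and Sprr3 point down.

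Late envelope genes were nearly silent in both libraries. Of 31 late envelope and S100-fused genes, 21 were at 0 in both libraries and 29 had a mean below 1 TPM. Crnn (cornulin, of internal squamous epithelia) was listed at 0 in control organoids and 1.85 TPM in knockout organoids, at least 68.4-fold higher against the floor of 3 reads, from an estimated 60.9 reads, with a counting interval that began at 53.98. Tchh (trichohyalin, of hair follicle sheath) was 5.27 and 1.25 TPM, a ratio of 0.237 (0.197 to 0.284). Filaggrin (Flg), the granular layer protein, named here although not called at 2-fold on the log2(TPM + 1) scale, was 0.127 and 0.00789 TPM. The plain ratio of knockout to control was 0.0623. The annotated length gave an estimate of 0.208 knockout reads, less than 1 read although the level was above 0. That length therefore did not hold for Flg, and no read numbers or counting interval are given for it.

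Of 18 other envelope proteins and transglutaminases, 11 were at least 2-fold higher and 2 lower, with a median difference of 1.12. Lgals7 (galectin-7 of stratified epithelium) was 0.881 and 41.7 TPM, a ratio of 47.3 (34.96 to 65.6). Anxa8, an annexin, was 15.5 and 132.9 TPM, and Trex2, an exonuclease of keratinocytes, 1.88 and 15.2 TPM. The 2 lower genes were Cdsn (corneodesmosin, which joins cornified cells), at 1.73 and 0.190 TPM, and the protease inhibitor Slpi, at 215 and 100.1 TPM.

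Among 23 barrier lipid and desquamation genes 5 were higher and 1 was lower. Their median difference was 0.04. Casp14, the caspase of cornifying cells, was 0.463 and 9.09 TPM, Padi3, a protein deiminase on chromosome 4, 0.136 and 3.66 TPM, and Cers3, a ceramide synthase, 2.90 and 16.3 TPM. Alox12e, an epidermal lipoxygenase, was 603 and 31.6 TPM, a ratio of 0.0524 (0.0496 to 0.0552). The other higher genes were Klk8, at 0.0508 and 1.20 TPM, and Klk10, at 0.122 and 1.48 TPM, both with a mean below 1 TPM. Klk5 was at 0 in both libraries, and 17 of the 23 had a mean below 1 TPM.

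Regulators of squamous differentiation were at least 2-fold higher in 12 of 27 cases and lower in 1, with a median of 0.76. Pitx1, a homeobox factor, was 0.0190 TPM from 3 reads and 83.4 TPM. Trp63, the p53 relative that maintains stratified epithelium, was 0.0280 TPM (14 reads) and 15.97 TPM (2371 reads), and Grhl3, a grainyhead-like factor of the barrier on chromosome 4, was 0.0241 TPM (4 reads) and 7.30 TPM (360 reads). The lower gene was Elf5 at 8.57 and 0.104 TPM. Keratins of stratified epithelium (18 genes) had a median difference of 1.17, with 10 higher and 0 lower. Krt5, Krt13 and Krt14 of the basal and internal squamous layers were 0.130, 4.29 and 0.129 TPM in control organoids and 1543, 1140 and 200.4 TPM in knockout organoids. Krt1, a keratin of the epidermal spinous layer, was 0.0753 TPM and 0, and Krt2 of the upper epidermis was at 0 in both. Krt10 of the same list was 3.23 and 6.04 TPM, a ratio of 1.87 (1.58 to 2.21), and was called neither higher nor lower.

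The other 6 members of the 14-3-3 family, relatives of Sfn, were all within 2-fold, with a median difference of 0.08. They summed to 1902 and 1783 TPM, and Ywhaq had the largest difference, at 483 and 285 TPM.

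**Figure D5:**
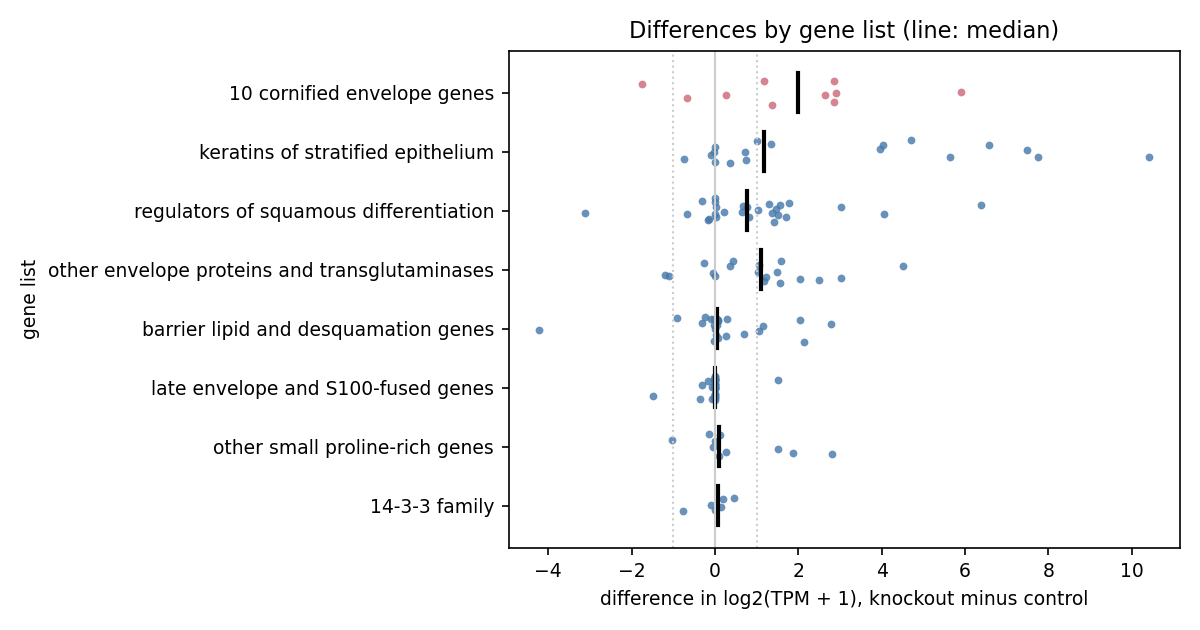
Difference in log2(TPM + 1), knockout minus control, for each gene (points) of the 10 cornified envelope genes and 7 other lists, with the median as a black line and dotted lines at 2-fold. The 10 genes have a median of 1.998, keratins 1.17 and other envelope proteins 1.12, while late envelope genes and the 14-3-3 family lie close to 0.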

How the data were processed

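RNA of 2 organoid libraries was sequenced as strand-preserving 50 bp read pairs, per the labels' protocols. The authors deposited TPM values for 25668 gene symbols per library, with GRCm39 as the build, per the submitters' processing notes. Aligner, counter and annotation: not given in the sources used here. Whole reads were recovered in Python 3.11.15: low TPM values of genes with 1 transcript in GENCODE M21 (GRCm38) gave the worth of 1 read, 0.0168 TPM per 1000 bases in control and 0.0565 TPM in knockout organoids. Reads came out whole, within 0.02 of a whole number with the annotated length or as a whole-number ratio, for 77.2% of genes above 0, including all 10 genes described. The annotated length gave whole reads for 9 of them and the ratio for Tgm1. Other reads are estimates. Intervals are exact (Clopper-Pearson for ratios, Poisson for levels), at 95%, with a floor of 3 reads.

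Differences are log2(TPM + 1), knockout minus control, and a call is a difference of at least 2-fold. A pseudocount makes the fold change of low genes too small. The members and lists were chosen with earlier results of these data known. Named genes are the 10 genes, Trp53 and up to 3 genes with the largest differences in each direction of each other list. Markers are named as checks, and genes named for position, level, absence or to complete a list were chosen after their values were seen. The steps were tested on simulated data. Alternatives were other pseudocounts, filters, scalings and a 4-fold threshold.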

Additional observations from a re-analysis of the deposited data

How the results depend on the processing

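No paired analysis was possible because each genotype has 1 library. Of 89 alternative values of counts, medians, sums and shares, 58 stayed close to the value reported and 31 moved. Close meant within 1.5 times for a count, within its counting interval for a median or sum and within 1 percentage point for a share. Of 50 alternative values of single members, 20 stayed within the counting interval (for Krtdap, the bound from the 3-read floor) and 30 moved. None of the medians, sums or single-member differences changed sign. For a single gene or a sum, a change of pseudocount cannot change the sign. With a pseudocount of 0.1, 2 members were lower (Lor and Sprr3) and the member median was 2.84. With a pseudocount of 5, 5 members were higher, Sprr2d (0.38) and Krtdap (0.39) no longer passing 2-fold, and 0 were lower, the member median was 0.89, and 563 genes were higher and 930 lower of all genes. That pseudocount also gave 1 higher and 0 lower among other small proline-rich genes, 0 and 0 among late envelope genes, 5 and 1 among other envelope proteins, 2 higher among barrier genes and 6 higher among regulators. At a 4-fold threshold 0 members were lower, and 267 genes were higher and 661 lower of all genes. At a mean TPM of at least 5, 4 members were higher and 0 lower, their median was 2.86, and 1091 of all genes were lower. A mean TPM of at least 1 gave a member median of 2.75, 0 higher late envelope genes, 1 lower envelope protein and 3 higher barrier genes. Fewer genes enter under these filters. Quantile normalization gave 0 lower among other small proline-rich genes, 1 lower among other envelope proteins and a Sprr2 sum difference of 1.28, and rescaling by the median ratio gave 1.38, against 1.20 as deposited. Without Sfn, Sprr1a held 55.2% of the sum in control and 65.0% in knockout organoids. The causes were not tested. Low reads limit Sprr2d, Sprr2e, Sprr3, Lor and Krtdap, each with fewer than 20 reads in one library.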
